A study of Mus musculus with 4 samples.

Results

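The Ifitm genes encode small interferon-induced membrane proteins, and 5 mouse members (Ifitm1, Ifitm2, Ifitm3, Ifitm6 and Ifitm7) are described here in plasmacytoid dendritic cells (pDCs) split by a reporter of the chemokine gene Cxcl10. The members were taken by gene symbol as 5 of the 27179 genes of the count table, and they were chosen by their counts in BFP-positive over BFP-negative cells, since Ifitm1 was known to be among the largest rises of this contrast. Their difference between the groups is therefore given as a description, and calls of a member are reported without p-values and support nothing. RNA-seq was done on 4 libraries of pDCs that had been raised over 8 days from C57BL/6 bone marrow in the presence of Flt3 ligand, on which dendritic cell progenitors depend. The cells of all libraries had received the TLR7 ligand imiquimod at 1 µg/ml for 24 h, and no unstimulated library was analysed here. BFP-positive cells (2 libraries) were compared with BFP-negative cells (2 libraries), where BFP is a blue fluorescent protein that reports Cxcl10. Both groups were sorted as pDCs with SiglecH and CD11b, but neither the direction of the CD11b gate nor the place of the BFP gate is stated. The make of the reporter allele is not stated, nor whether replicates came from separate animals or cultures, so any p-value measures the spread between these libraries only.

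IFITM proteins sit in cellular membranes and hinder enveloped viruses from fusing with the cell. In mouse and human, IFITM3 and IFITM2 act mainly in endosomes and IFITM1 at the cell surface, while Ifitm6 and Ifitm7 are less studied. Type I interferon induces the genes through a transcription factor complex that binds the interferon-stimulated response element (ISRE), and pDCs are known as major producers of that interferon after TLR7 signalling.

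On the mouse assembly GRCm38.p6, with RefSeq gene bounds, 4 of the members form a cluster of 62.1 kb on chromosome 7. Ifitm2 (Entrez gene 80876) lies at chr7:140954837-140959686 on the minus strand and Ifitm1 (68713) at chr7:140967429-140969827 on the plus strand. Ifitm3 (66141) follows at chr7:141009590-141010744 and Ifitm6 (213002) at chr7:141015812-141016892, both on the minus strand. Ifitm7 (74482) stands apart at chr16:13981702-13986867 on the minus strand.

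Promoter sequence is shown for the 3 members whose RefSeq promoter holds the core of an interferon-responsive element. Ifitm1 and Ifitm7, whose promoters held none, differed between the groups as well, and the part of these elements in the difference was not tested. Each stretch runs 5′ to 3′ from 90 bases before the RefSeq start site through the first 30 bases of the transcript. Capitals mark the ISRE core GAAANNGAAA in Ifitm2 and Ifitm3, and in Ifitm6 the core TTCNNNGAA of the gamma-activated site, an element of the interferon gamma response.
Ifitm2 (chr7:140955932-140956051, minus strand): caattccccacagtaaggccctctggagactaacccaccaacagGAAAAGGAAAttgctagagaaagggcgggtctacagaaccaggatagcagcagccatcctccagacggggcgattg
Ifitm3 (chr7:141010715-141010834, minus strand): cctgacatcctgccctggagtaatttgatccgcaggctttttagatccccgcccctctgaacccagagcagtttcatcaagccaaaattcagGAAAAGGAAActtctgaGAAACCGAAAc
Ifitm6 (chr7:141016863-141016982, minus strand): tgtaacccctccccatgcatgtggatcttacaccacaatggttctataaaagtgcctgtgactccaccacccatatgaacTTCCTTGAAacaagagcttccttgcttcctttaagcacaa

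The ISRE core was searched on both strands over the 300 bases around each RefSeq start site. Ifitm2 held 1 match, at positions -46 to -37 from its start. Ifitm3 held 2, at 3 to 12 and at 20 to 29 inside the transcript, and GENCODE places the Ifitm3 start further upstream. None was in the windows of Ifitm1, Ifitm6 or Ifitm7, and 3.43% of 32817 promoters of this length held at least 1. The gamma-activated site core reads the same on both strands and was found in 8.29% of the promoters. Ifitm3 held it at 14 to 22, overlapping its second ISRE core, and Ifitm6 at -10 to -2. The Ifitm1 and Ifitm2 windows belong to start sites inside the RefSeq gene bounds, so the Ifitm2 match also lies inside those bounds. A match is a string of letters and not a measured site, and these letters may lie elsewhere in the genes without a match.

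BFP-positive cells held more RNA of all 5 Ifitm genes than BFP-negative cells. Together the members took 0.266% and 0.341% of the counts of BFP-positive replicates 1 and 2, against 0.0405% and 0.0450% of BFP-negative replicates 1 and 2. Their summed level was 3110 ± 560 CPM in BFP-positive cells and 419 ± 38.8 CPM in BFP-negative cells (SD, n = 2 each; CPM, library-scaled counts with edgeR's TMM factors), a ratio of 7.42. All 5 passed the filter on low counts and were among the 7.6% of 11706 tested genes called higher at an adjusted p under 0.05 in edgeR's quasi-likelihood test, against 3.51% called lower. Each was higher in both BFP-positive libraries than in both BFP-negative libraries, a pattern shown by 27.1% of tested genes. Because the members were proposed from this contrast, and Ifitm6 and Ifitm7 passed the filter through the BFP-positive libraries, these counts describe the members and are read no further. In bulk RNA, fewer cells of a type and less RNA per cell cannot be told apart.

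**Figure D1:**
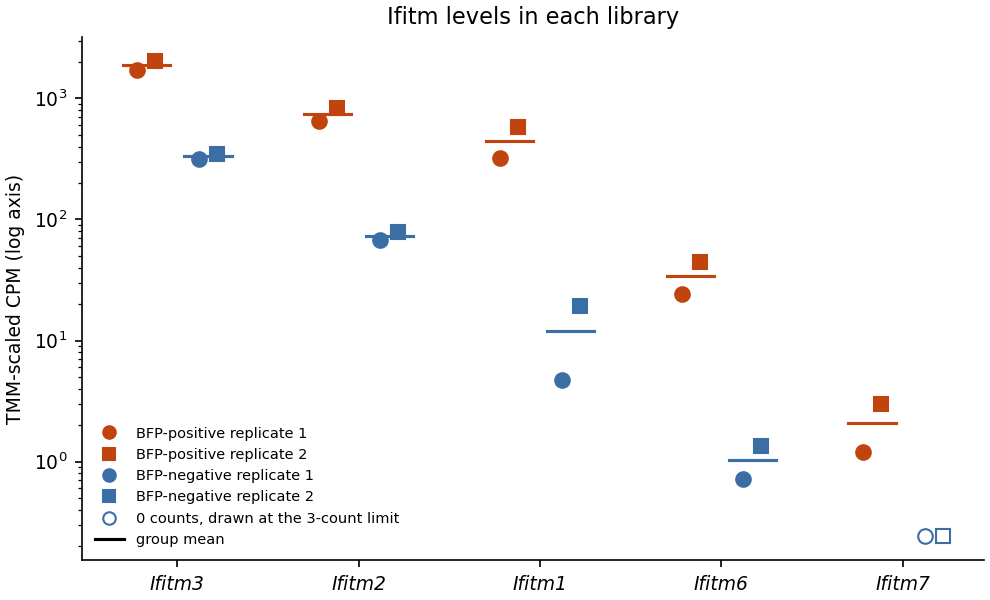
Level of each Ifitm gene in each library, in TMM-scaled CPM on a log axis, with BFP-positive libraries left of BFP-negative ones and a line at the group mean where no library was at 0. Every BFP-positive point lies above both BFP-negative points of its gene, from 1723 and 2056 against 319 and 347 CPM for Ifitm3 to 1.20 and 2.96 CPM for Ifitm7, whose BFP-negative libraries had 0 counts.

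Ifitm3, which blocks influenza virus and other viruses in late endosomes, was the most abundant member in every library. It had 20076 and 24973 counts in BFP-positive replicates 1 and 2, against 3964 and 4403 in BFP-negative replicates 1 and 2. Its level was 1889 ± 235 CPM in BFP-positive cells and 333 ± 20.3 CPM in BFP-negative cells (SD, n = 2 each), with a log2 fold change of 2.50, SE 0.13. The libraries of each group were close together and the groups lay far apart. Per length, in the deposited log2 RPKM values turned back to RPKM (reads per unit of gene length and of library total), Ifitm3 stood at 2610 and 3084 in BFP-positive and 509 and 541 in BFP-negative libraries. That placed it 27th and 22nd of all genes in the BFP-positive libraries, and 258th and 232nd in the BFP-negative ones, so the gene with the smallest fold change of the family was already well expressed in BFP-negative cells.

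Ifitm2, the endosomal relative next to Ifitm1 in the cluster, differed by a larger fold. It had 7523 and 10057 counts in BFP-positive replicates 1 and 2, against 841 and 995 in BFP-negative replicates 1 and 2. The level averaged 737 ± 129 CPM in BFP-positive and 73.0 ± 7.70 CPM in BFP-negative cells, with a log2 fold change of 3.33, SE 0.16. The spread within either group was small beside the gap between the groups. Ifitm2 stood at 1011 and 1283 RPKM in BFP-positive libraries and at 112 and 126 RPKM in BFP-negative ones. In RPKM, Ifitm2 over Ifitm3 was 0.387 and 0.416 in BFP-positive libraries, against 0.219 and 0.234 in BFP-negative libraries, so Ifitm2 was nearer to Ifitm3 in BFP-positive cells.

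Ifitm1, the member that acts at the cell surface, was strongly detected in BFP-positive cells and low and variable in BFP-negative cells. It had 3732 and 6997 counts in BFP-positive replicates 1 and 2, against 59 and 246 in BFP-negative replicates 1 and 2. Its level was 448 ± 181 CPM in BFP-positive cells and 12.1 ± 10.4 CPM in BFP-negative cells, with a log2 fold change of 5.21, SE 0.51. BFP-negative replicate 2 held 4.09 times the Ifitm1 level of BFP-negative replicate 1, the widest replicate gap of the 4 members with counts in BFP-negative cells, yet both stayed far under the BFP-positive libraries. The size rested on these libraries: the log2 fold change was 4.53 when BFP-negative replicate 1 was left out and 6.58 when BFP-negative replicate 2 was. With robust dispersion Ifitm1 was not called. In RPKM, Ifitm1 over Ifitm3 was 0.143 and 0.216 in BFP-positive libraries and 0.0115 and 0.0431 in BFP-negative libraries, and in rank among all genes Ifitm1 stood 350th and 181st in the BFP-positive libraries and 6501st and 3392nd in the BFP-negative ones.

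Ifitm6, the last gene of the cluster, was a low member with few counts in BFP-negative cells. It had 281 and 539 counts in BFP-positive replicates 1 and 2, against 9 and 17 in BFP-negative replicates 1 and 2. The level was 34.2 ± 14.3 CPM in BFP-positive and 1.03 ± 0.437 CPM in BFP-negative cells, with a log2 fold change of 5.04, SE 0.46. Within each group replicate 2 was higher than replicate 1, by 1.84 times in BFP-positive and 1.85 times in BFP-negative cells, and the groups did not overlap. With few counts in BFP-negative cells the size is loosely set, from 4.54 without BFP-positive replicate 2 to 5.56 without BFP-negative replicate 2. Ifitm1 over Ifitm6 in RPKM was 8.55 and 8.36 in BFP-positive libraries and 4.14 and 9.21 in BFP-negative libraries, which overlap, whereas Ifitm3 over Ifitm6 was 59.6 and 38.7 against 359 and 213.

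Ifitm7, the member outside the cluster, was rare. It had 14 and 36 counts in BFP-positive replicates 1 and 2 and 0 in both BFP-negative libraries. Its level was 1.20 and 2.96 CPM in BFP-positive libraries. A count of 0 allows 3 counts over the BFP-negative group, or 0.119 CPM. The pooled BFP-positive level of 2.10 CPM was 17.6 times that limit, a ratio that leaves out the error of the BFP-positive counts. Since PCR copies of a molecule are counted too, the limit covers counting error in BFP-negative cells alone. The fitted log2 fold change of 7.68 (SE 1.74) is no measured size. With either BFP-negative library left out Ifitm7 was not called, and without BFP-positive replicate 2 it was too low to be tested.

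The order of the members per length was the same in every library, with Ifitm3 highest, then Ifitm2, Ifitm1, Ifitm6 and Ifitm7. On the deposited log2 RPKM scale the levels were 11.47 ± 0.17, 10.15 ± 0.24, 8.96 ± 0.59, 5.89 ± 0.61 and 0.03 ± 0.90 in BFP-positive cells in that order (SD, n = 2). BFP-negative cells gave 9.03 ± 0.06, 6.89 ± 0.13, 3.55 ± 1.41 and 0.92 ± 0.59, with Ifitm7 listed at the value given to 0 counts. No neighbours in this order overlapped within a group. The make-up of the family RNA differed between the groups, since the other clustered members differed by larger folds than Ifitm3. Ifitm3 supplied 63.5% and 58.6% of the counts of the 5 genes in BFP-positive libraries and 81.3% and 77.8% in BFP-negative ones, and Ifitm1 supplied 11.8% and 16.4% against 1.21% and 4.35%. Ifitm2 held 23.8% and 23.6% of these counts in BFP-positive libraries and 17.3% and 17.6% in BFP-negative libraries.

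**Figure D2:**
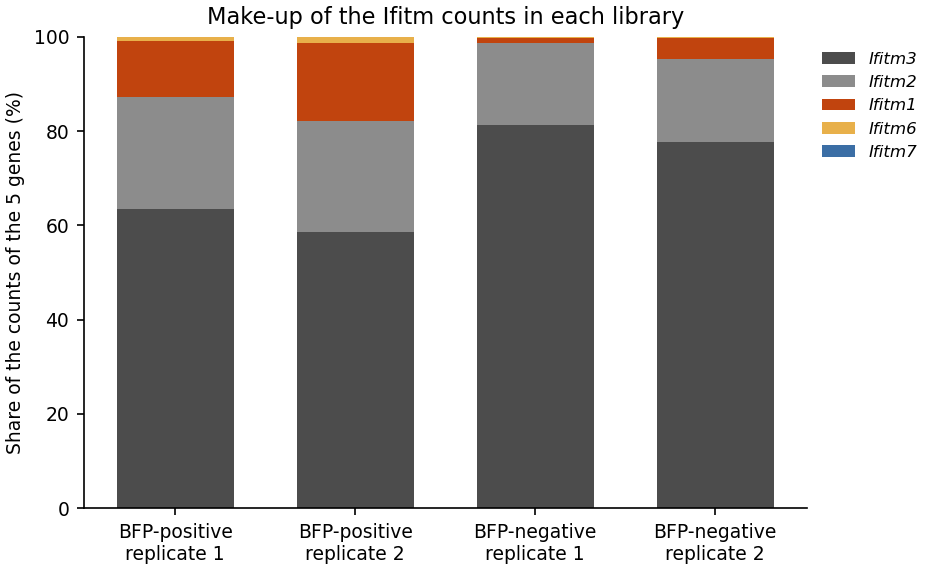
Share of each gene, in percent, in the summed counts of the 5 Ifitm genes, for BFP-positive replicates 1 and 2 and then BFP-negative replicates 1 and 2. Ifitm3 takes 58.6% to 63.5% of the bar in BFP-positive libraries and 77.8% to 81.3% in BFP-negative ones, while Ifitm1 takes 11.8% to 16.4% and 1.21% to 4.35%; Ifitm7 is too small to see.

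Reads of close relatives can be split or lost between copies, and the counting of such reads is not described. Coding sequences of Ifitm1 and Ifitm7 were identical at 89.3% of aligned bases, although Ifitm7 held 0.375% and 0.515% as many counts as Ifitm1 in the BFP-positive libraries. Ifitm1 and Ifitm2, Ifitm1 and Ifitm3, and Ifitm2 and Ifitm3 were identical at 82.1%, 82.1% and 80.9%, and Ifitm6 matched the others at 65.7% to 68.8%. Of the stretches of 50 bases in a GENCODE transcript, 48.5% of those of Ifitm2 also occurred in another annotated gene, mostly predicted genes, the highest share of the 5 members, and its effect on the counts was not tested. The share was 6.36% for Ifitm1 and 0 for Ifitm6. For Ifitm7 it was 22.0%, all in the overlapping antisense gene 2900011O08Rik, which had 0 counts in all libraries, and Ifitm3 lay between Ifitm1 and Ifitm7.

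Members differed in how alike their profiles across the libraries were. The distance between a pair was taken over the 4 libraries as the Euclidean distance of log2 CPM values (prior count 2) centred on each gene's own mean, so that smaller is more alike. Ifitm2 and Ifitm3 were 0.831 apart and Ifitm1 and Ifitm6 1.07, while Ifitm1 and Ifitm3 were 3.26 apart. The closest pair was Ifitm2 and Ifitm7 at 0.697, but the prior count damps the profiles of rare genes such as Ifitm7, and the same holds for the rare genes listed next. For each member the 3 other tested genes nearest by this measure are given as a description, since all follow the same 4 libraries. Nearest to Ifitm1 were Clec4n, which encodes the fungal receptor Dectin-2, Ptpro, a receptor tyrosine phosphatase, and Fcgr1, the high-affinity IgG receptor, at distances of 0.258, 0.419 and 0.517. Ifitm2 lay nearest to the carbonyl reductase gene Cbr3 (0.0276), the antiviral oligoadenylate synthetase gene Oas1a (0.0769) and Loxl3, a lysyl oxidase relative (0.205) that had 0 counts in both BFP-negative libraries. Oas1a had 102 and 135 CPM in BFP-positive libraries against 10.6 and 13.2 CPM in BFP-negative libraries, a profile that tracks Ifitm2 at a lower level. Ifitm3 lay nearest to Klrd1, which encodes the receptor chain CD94 (0.102), to the antiviral exonuclease gene Isg20 (0.158) and to Tspan17, a tetraspanin (0.167). Nearest to Ifitm6 were the kinase gene Stk39 (0.259), the calcium-binding protein gene S100a4 (0.586) and Il1rn, the interleukin-1 receptor antagonist (0.588). For Ifitm7 they were Gprc5a (0.0676), Ms4a4a (0.0811) and Crabp2 (0.0928), which likewise had 0 counts in both BFP-negative libraries.

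Around the chromosome 7 cluster most tested neighbours were not called. Of 36 other genes that start within 300 kb of the cluster, 18 were tested and the rest were too low. In BFP-positive cells 3 were higher and 0 lower, or 16.7% and 0%, beside 7.6% and 3.51% of all tested genes. An unadjusted p under 0.05 in edgeR's test was reached by 5 of the 18. The median log2 fold change of the 18 was 0.21, against -0.02 for all tested genes. Pgghg, a glucosidase gene that starts 13.4 kb before Ifitm2, rose to 84 and 163 counts in BFP-positive replicates 1 and 2, against 31 and 32 in BFP-negative replicates 1 and 2 (log2 fold change 2.04, SE 0.50, adjusted p = 0.0279). Sct, the gene of the hormone secretin, was higher at 114 and 126 counts against 23 and 33 (2.17, SE 0.48, adjusted p = 0.0176). Irf7, the main transcription factor of the interferon alpha genes, starts 308.3 kb after the start of Ifitm2 and rose by log2 0.67, SE 0.13, to 1229 ± 16.6 CPM in BFP-positive cells against 773 ± 140.0 CPM in BFP-negative cells (adjusted p = 0.0103). Without BFP-positive replicate 2 only 1 of these 3 calls remained, with adjusted p = 0.295 for Pgghg and 0.0734 for Sct. Ifitm5, which is known from bone cells and starts 5.9 kb before Ifitm2, had 0 counts in every library. Of 6 tested neighbours of Ifitm7, 0 were called in edgeR, DESeq2 or limma-voom, and 0 had an unadjusted p under 0.05 in edgeR.

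**Figure D3:**
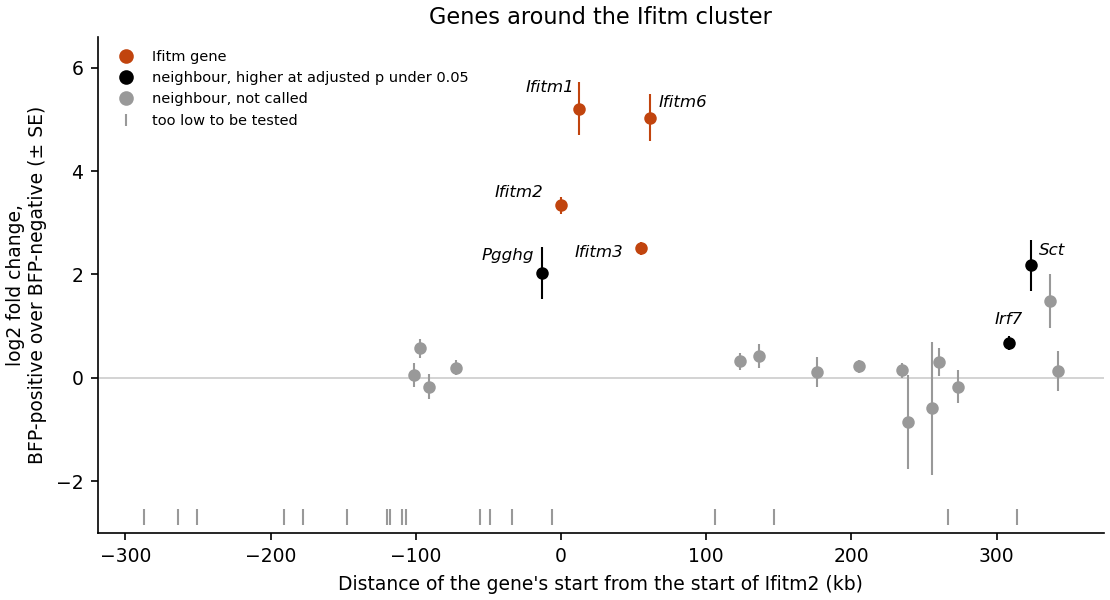
Log2 fold change of BFP-positive over BFP-negative cells, with its SE, against the distance in kb of each gene's start from the start of Ifitm2. The 4 clustered Ifitm genes stand at 2.50 to 5.21, above every tested neighbour, of which Sct at 2.17 and Pgghg at 2.04 are the highest; ticks at the bottom are genes too low to be tested.

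Among the genes that carry the interferon signal, the receptor chains for type I interferon did not pass the test. Ifnar1 was at 222 and 228 CPM in BFP-positive and 173 and 206 CPM in BFP-negative libraries (log2 fold change 0.24, SE 0.14), and Ifnar2 averaged 629 ± 6.33 and 679 ± 21.01 CPM (-0.11, SE 0.11). The same held for Irf9, part of the complex that binds the ISRE, with a log2 fold change of 0.30, SE 0.12. Of 15 receptor and signalling genes, 6 were higher and 0 lower, or 40% and 0%, beside 7.6% and 3.51% of all tested genes. The list's median log2 fold change was 0.44. Irf1, an interferon-induced transcription factor, rose to 187 ± 2.09 CPM in BFP-positive cells against 99.2 ± 5.78 CPM in BFP-negative cells (0.91, SE 0.14, adjusted p = 0.00266). Socs3 and Socs1, feedback inhibitors of cytokine signalling, rose by log2 0.95, SE 0.16 and 0.94, SE 0.23, though Socs1 was not called without BFP-negative replicate 2 (adjusted p = 0.0859) or BFP-positive replicate 1 (adjusted p = 0.132). Ifngr1, a chain of the interferon gamma receptor, rose by 0.98, SE 0.17, and Usp18, which restrains type I receptor signalling, by 0.62, SE 0.12, a call lost without BFP-positive replicate 1 (adjusted p = 0.0782). Interferon genes themselves, whose near-identical copies may lose reads, were hardly seen, with 12 of 18 at 0 counts in every library and 2, Ifng and Ifnl2, high enough to be tested. Neither of these was called in edgeR, DESeq2 or limma-voom, and 0 had an unadjusted p under 0.05 in edgeR.

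Other antiviral effectors, which interferon induces as it does the Ifitm genes, were mixed. In BFP-positive cells 15 of 31 tested genes were higher and 2 lower, or 48.4% and 6.45%, beside 7.6% and 3.51% of all tested genes, and their median log2 fold change was 0.83. Rtp4, an interferon-induced receptor chaperone, was at 173 ± 2.08 CPM in BFP-positive cells and 23.8 ± 0.754 CPM in BFP-negative cells (2.86, SE 0.16). Oas1a, a sensor of double-stranded RNA, was at 119 ± 23.1 and 11.9 ± 1.81 CPM (3.32, SE 0.22). Isg20 and Ifit3, which binds viral RNA complexes, rose by 2.42, SE 0.19 and 3.04, SE 0.27. Isg15, a ubiquitin-like modifier, and Bst2, which tethers budding virus, did not pass, with log2 fold changes of 0.16, SE 0.11 and -0.01, SE 0.12. The 2 that fell were Oasl1 (-1.06, SE 0.17), known to restrain Irf7 translation, and Ifi44 (-0.69, SE 0.19), which was not called without BFP-negative replicate 1 or without BFP-positive replicate 1. The log2 fold changes of Ifitm1 and Ifitm6 were above those of all 31 effectors, that of Ifitm2 was below 2 of them, Gbp2 (3.48) and Gbp3 (3.73), and that of Ifitm3 below 5. Since the members were chosen by this contrast, this order describes them and is read no further.

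**Figure D4:**
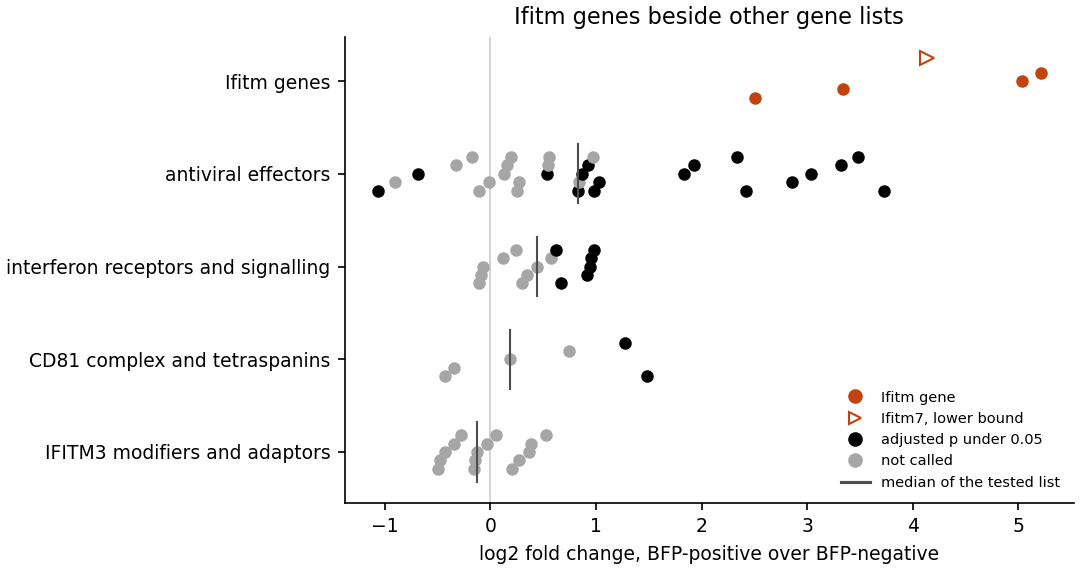
Log2 fold change of BFP-positive over BFP-negative cells for 4 Ifitm genes and 4 other gene lists, with a bar at each list's median. The open mark, labelled a lower bound, is the pooled BFP-positive level of Ifitm7 over the 3-count limit, without the error of the BFP-positive counts. The Ifitm genes span 2.50 to 5.21, while medians of the other lists are 0.83, 0.44, 0.19 and -0.12; 1 gene of the lists is not drawn.

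IFITM3 is palmitoylated, ubiquitinated and sorted by other proteins, and the genes of these partners showed no call in edgeR with all libraries. Of 15 tested modifiers and adaptors, among them the palmitoyltransferase genes Zdhhc5, Zdhhc9 and Zdhhc20, the ubiquitin ligase gene Nedd4 and subunits of the AP-2 sorting complex, 0 were higher or lower in edgeR and limma-voom. At an unadjusted p under 0.05 edgeR gave 2, 1 was called lower by DESeq2 and by edgeR with library totals, and without BFP-negative replicate 2 edgeR called 1 higher. The median log2 fold change was -0.12. Human IFITM1, also called CD225, binds a surface complex that holds the tetraspanin CD81. Cd81 was at 8.22 ± 1.97 CPM in BFP-positive and 11.1 ± 6.10 CPM in BFP-negative cells (-0.43, SE 0.46) and did not pass, and without BFP-negative replicate 2 its log2 fold change was 0.31. Among 7 genes of that complex and other tetraspanins, Cd53 and Cd9 were higher (1.27, SE 0.12 and 1.48, SE 0.23). The list's median was 0.19. Of the further IFITM-related genes, 9 were in the table, 7 had 0 counts in every library and 0 could be tested.

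Checks of the sort and of other cells were as follows. Library totals were 11868254 to 12570117 counts. Cxcl10, whose reporter set the groups, had 149 and 154 counts in BFP-positive replicates 1 and 2 against 3 and 19 in BFP-negative replicates 1 and 2, which checks the labels. Siglech was at 803 ± 25.04 CPM in BFP-positive and 613 ± 2.69 CPM in BFP-negative cells (log2 fold change 0.39, SE 0.11, adjusted p = 0.0485), a call lost without any 1 of the libraries (adjusted p = 0.0716 to 0.287). Itgam, the gene of CD11b, was at 10.1 ± 0.712 and 2.93 ± 1.65 CPM (1.78, SE 0.52, adjusted p = 0.0546) and passed when BFP-negative replicate 2 was left out (2.53, adjusted p = 0.00924). All 15 pDC markers were detected and summed to 20228 to 21020 CPM in BFP-positive and 24644 to 29319 CPM in BFP-negative libraries. Most of these sums was Ly6d, at 13612 and 12571 CPM in BFP-positive and 17289 and 20947 CPM in BFP-negative libraries. Siglech, Runx2 and Ly6c2 were higher, and Ly6d, Ccr9, Klk1, Cox6a2 and Mzb1 were lower. That is 3 higher and 5 lower, or 20% and 33.3%, beside 7.6% and 3.51% of all tested genes. Without BFP-positive replicate 2 these counts were 1 and 3.

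Markers of some other cell types differed between the groups as well, where 7.6% of all tested genes were called higher and 3.51% lower. Of 11 tested monocyte and macrophage markers, 6 were higher and 2 lower, or 54.5% and 18.2%, while C1qa and Mertk had 0 counts in all libraries. Their summed levels were 1395 to 1546 CPM in BFP-positive and 657 to 790 CPM in BFP-negative libraries. The largest part of these sums was Ly6c2, a gene also listed for pDCs. Ly6c2 stood at 777 and 897 CPM in BFP-positive and 299 and 379 CPM in BFP-negative libraries. Those that rose were Csf1r, Cd14, Ccr2, Fcgr1, Lyz2 and Ly6c2. Csf1r had 265 and 398 counts in BFP-positive replicates 1 and 2, against 3 and 0 in BFP-negative replicates 1 and 2. The markers that fell were Adgre1 (log2 fold change -1.83, SE 0.33) and Apoe (-3.40, SE 0.49). Of 13 conventional dendritic cell markers 6 were higher and 1, Cadm1, was lower, or 46.2% and 7.69%, with sums of 1207 to 1320 against 869 to 880 CPM. Cadm1 was not called without BFP-negative replicate 2 or without either BFP-positive library. The part of these markers in the Ifitm difference was not tested. Neutrophil markers, whose Elane and Retnlg had 0 counts in all libraries, summed to 17.9 to 37.6 CPM in BFP-positive and 17.4 to 22.9 CPM in BFP-negative libraries. Of 6 tested, 0 were called in edgeR or limma-voom, with 1 at an unadjusted p under 0.05, and 1 was higher in DESeq2 and in edgeR without BFP-negative replicate 2. B cell markers were lower in 2 of 5 cases, with sums of 95.3 to 105 CPM in BFP-positive and 123 to 124 CPM in BFP-negative libraries. Most of the B cell sum was Cd79b, at 90.2 and 96.7 CPM in BFP-positive and 90.1 and 96.2 CPM in BFP-negative libraries. The T cell markers Cd3e, Cd3d and Cd3g had 0 to 20 counts per library. T and NK cell markers were lower in 1 of 4 cases, with sums of 1135 to 1206 against 1506 to 1592 CPM, most of it from 1 gene. That gene was Cd8a, at 1043 and 1107 CPM in BFP-positive against 1495 and 1428 CPM in BFP-negative libraries, a call lost without BFP-negative replicate 1 or either BFP-positive library. Progenitor markers summed to 9301 to 10478 against 8252 to 9219 CPM and basophil and mast cell markers to 0 to 8.89 against 1.21 to 54.7 CPM, with 0 of 6 and 0 of 2 called in edgeR or limma-voom and 1 at an unadjusted p under 0.05 in each list. Nearly all of the progenitor sum was Ly6a, at 9269 and 10436 CPM in BFP-positive and 8226 and 9187 CPM in BFP-negative libraries. DESeq2 called 1 progenitor marker higher and 0 basophil markers, as did edgeR for 1 progenitor marker without BFP-negative replicate 2, and 1 to 2 basophil markers were lower without BFP-positive replicate 2 or BFP-negative replicate 1.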

How the data were processed

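The authors deposited a raw count table of the 4 libraries and log2 RPKM values per library. Tools named in the submitters' processing notes are featureCounts, Subread and limma, and the builds are mm10 and GRCm38, without versions, a strand setting or the handling of reads that match several places. Per the labels' protocols, libraries were made with a SMART-Seq kit, which amplifies full-length cDNA and marks neither strand nor single molecules. The deposited log2 RPKM values are scaled to gene length and library total and give a gene without counts a fixed low value.

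Genes were kept by filterByExpr (minimum count 10, minimum total 15), leaving 11706, and scaled by TMM. BFP-positive was compared with BFP-negative by the two-sided quasi-likelihood test of edgeR 4.0.16 in R 4.3.3, with no term but the group, 2 residual degrees of freedom, Benjamini-Hochberg adjustment over all tested genes and a threshold of 0.05. SE is the log2 fold change divided by the square root of F. Alternatives were other size factors, library totals, no filter, robust dispersion, DESeq2 1.42.0, limma-voom (limma 3.58.1), a replicate block, a prior count of 2 and leaving out each library. The edgeR step was tested on simulated data. Only the BFP part of the population label was used, since the labels and the design text differ on CXCL10 in BFP-negative cells. Titles share a code between same-numbered libraries that the labels do not explain. Promoters are from RefSeq (GRCm38.p6, matched for 5 of 5 members), transcripts from GENCODE.

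The members and gene lists were chosen with earlier results of these data known. Named genes are the members, up to 4 genes with the smallest p among those that passed in each pathway list, the 3 genes nearest to each member, and Cxcl10, Siglech, Itgam, Ifnar1, Ifnar2, Irf7 and Irf9; some genes of this rule are not reported here. Other genes named, such as Isg15, Bst2, Oasl1, Ifi44, Gbp2, Gbp3, Socs1, Cd81, Cadm1 and Cd8a, were chosen after their values were seen.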

Additional observations from a re-analysis of the deposited data

How the results depend on the processing

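With 2 libraries per group, sizes depend on single libraries. No called result reversed under the alternatives run. Of genes that did not pass, 3 changed sign: on leaving out each library in turn Cd81 ran from -0.90 to 0.31, Ifng from -0.92 to 0.058 (also 0.0089) and Bst2 from -0.12 to 0.14 (also 0.020), and Bst2 was at 0.000133 with DESeq2-type size factors and 0.000134 with DESeq2. On leaving out each library in turn, log2 fold changes ran from 4.53 to 6.58 for Ifitm1, 3.15 to 3.50 for Ifitm2, 2.38 to 2.63 for Ifitm3, 4.54 to 5.56 for Ifitm6 and 7.67 to 8.21 for Ifitm7, and 4 to 5 members were called. The fitted value for Ifitm7 is set by 0 counts and was 7.16 with DESeq2, 5.62 with limma-voom, 3.78 with a prior count of 2 and 6.69 in the deposited log2 RPKM values. Robust dispersion called 4 members, without Ifitm1. All genes called higher numbered 559 to 921 and lower 245 to 408 on leaving out each library, the smallest being 559 when BFP-positive replicate 2 and 245 when BFP-positive replicate 1 was dropped. Scaling to library totals gave 813 and 574. The labels do not say that replicate numbers pair the libraries, and the deviations of same-numbered libraries correlated at 0.0594 across genes, for 2 pairs. With a replicate block 1140 genes were higher and 760 lower, and all 5 members were called; it also gave 1 higher and 1 lower IFITM3 modifier or adaptor, 2 lower genes of the CD81 and tetraspanin list, 1 higher neutrophil and 1 higher progenitor marker and 1 lower basophil marker. Itgam passed with DESeq2, limma-voom, no filter on low counts, the replicate block and without BFP-negative replicate 2 (adjusted p = 0.00924 to 0.0419); Siglech did not pass by library totals (adjusted p = 0.0841). The cause of these changes was not tested, beyond the fewer libraries where one was left out. Recomputing RPKM from counts was not run, because the files hold no gene length. Ifitm6 and Ifitm7 are limited by depth in BFP-negative cells, where 1 count is worth 0.0789 to 0.0804 CPM.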
